A study of Mus musculus with 3 samples.

Results

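A pair of wild-type (WT) preparations of mouse brain vessels, one from C57BL6 mice and one from mice of a mixed C57BL6-BALB/c background, were compared gene by gene. Both came from 3-month-old males with an intact Cx30 gene, and each was 1 library made from the pooled vessels of 3 mice. Vessels were isolated from whole brains and their polyadenylated RNA was sequenced. A further library from vessels of Cx30-/- mice, in which the gene of the astrocytic gap junction protein connexin 30 is deleted throughout the body, completes the series of 3 libraries and is given here only as values beside the others. Its background is C57BL6 in the sample labels and C57BL6/Balbc in the study's methods. All transcripts with a gene name entered the comparison. Of 29917 genes, 14791 had at least 50 normalized counts (reads divided by a library size factor) in at least 1 of the 2 WT libraries, and 15126 lay below that minimum. With 1 library for each background, no difference has a replicate check and no p-value was computed. Background, the mice pooled and the vessel preparation cannot be told apart.

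A brain vessel preparation of this kind holds endothelial cells, which form the blood-brain barrier through tight junctions and selective transporters, together with the mural cells that wrap them. Pericytes are the mural cells of capillaries, whereas smooth muscle cells surround arteries and arterioles and set their diameter. Inbred strains such as C57BL6 and BALB/c differ in many immune genes, among them the histocompatibility genes of the H2 complex.

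The deposited counts, which list a read once for every transcript whose exon it overlaps, summed to 60725557 in the C57BL6 and 53484865 in the C57BL6-BALB/c library. The size factors were 1.1452 and 0.9258. Defining markers of the preparation were read deeply in both libraries, as shown by the endothelial junction gene Cldn5 with 29576 and 11223 raw counts and the pericyte gene Rgs5 with 39176 and 19759. Gjb6, which encodes connexin 30, had 2899 counts in the C57BL6 and 2246 in the C57BL6-BALB/c library, against 96 in the Cx30-/- library. Its log2 ratio between the WT libraries (C57BL6-BALB/c over C57BL6, as throughout) was -0.06, with a 95% counting interval from -0.14 to 0.02. This interval, like all those below, covers read sampling only. The Y-linked genes Ddx3y, Eif2s3y, Uty and Kdm5d had between 721 and 3610 raw counts in the WT libraries, whereas Xist, the RNA of the inactive X chromosome, had 42 and 23.

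Most genes had close levels in the 2 preparations. In 84.63% of the genes compared the difference was under 1.5-fold, the median log2 ratio was 0.0004, and the 5th and 95th percentiles were -0.72 and 0.68. A difference of at least 2-fold was seen for 508 genes, 3.43% of those compared. Of these, 209 (1.41%) were higher and 299 (2.02%) were lower in C57BL6-BALB/c vessels. The 95% counting interval lay wholly past 2-fold for 217 of them, 87 higher and 130 lower. At least 4-fold, 29 genes were higher and 27 lower, and at least 8-fold, 17 and 11. Near the threshold, 89 genes had a ratio from 2-fold to 2.1-fold and 151 from 1.9-fold to just under 2-fold. Among protein-coding genes 146 (1.07%) were higher and 274 (2.01%) lower, while among other gene types, mostly noncoding RNAs and pseudogenes, 63 (5.49%) were higher and 25 (2.18%) lower.

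**Figure D1:**
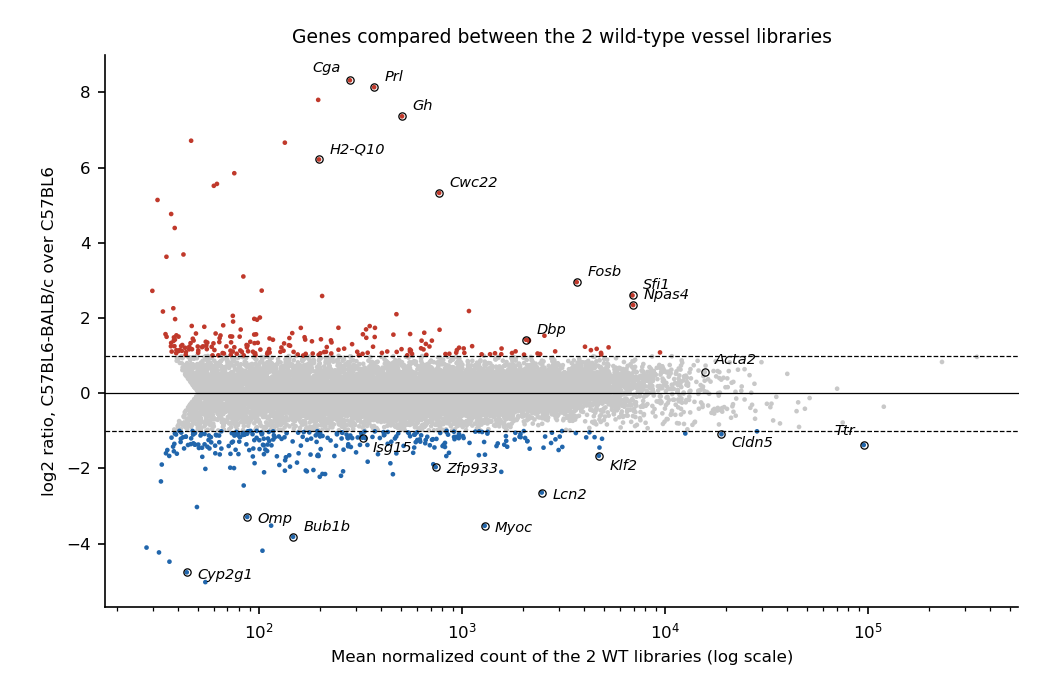
The log2 ratio of C57BL6-BALB/c over C57BL6 WT vessels (y axis) against the mean normalized count of both libraries on a log scale (x axis), 1 point for each of the 14791 genes compared. Red points are at least 2-fold higher and blue points at least 2-fold lower, dashed lines mark 2-fold, genes without a read in 1 library are drawn at a floor of 3 counts, and most points lie within 1.5-fold of the zero line.

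The log2 ratio moved with the length of the transcript. Over genes, Spearman's rho of length and log2 ratio was 0.26, a description across genes and not across replicates. Over 5 equal bins of genes from the shortest to the longest transcripts, the median log2 ratio went from -0.16 through -0.09, -0.01 and 0.06 to 0.16. Genes past 2-fold in either direction were more frequent among short transcripts, with 3.45% of the shortest bin and 0.71% of the longest bin at least 2-fold lower and 2.43% and 0.78% at least 2-fold higher. The cause of this trend was not tested. After subtracting the median of genes of like length, an alternative chosen after seeing the data, 234 genes were at least 2-fold higher and 277 lower, and the medians of the endothelial, smooth muscle, interferon and choroid plexus lists described below were -0.67, 0.42, -0.82 and -1.01. Of 124 named genes past 2-fold, 15 came to lie within 2-fold under this correction, among them Cldn5 at -0.94, Itm2a at -0.97, Cox4i2 at -0.98, Ms4a7 at -0.96, Psmb9 at -0.95 and Igsf5 at -0.91.

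Endothelial genes were lower as a group in C57BL6-BALB/c vessels. All 30 markers on the endothelial list were past the count minimum, 28 of them had a log2 ratio below 0, and the median was -0.66, against 0.0004 over all genes. Of the 30, 3 (10%) reached 2-fold, against 3.43% of all genes. Cldn5, the main claudin of the blood-brain barrier (chromosome 16, 18776847 to 18778262 in GRCm38), was read at 25826 normalized counts in C57BL6 vessels and 12122 in C57BL6-BALB/c vessels, 2.13-fold lower with an interval from -1.12 to -1.06 on the log2 scale. Emcn, which encodes the sialomucin endomucin, had 2267 and 1026 normalized counts, or a log2 ratio of -0.96 by its longest transcript, and Itm2a had 17068 and 8115. Pan-endothelial genes lay near the median of the list, as shown by the adhesion molecule Pecam1 with 12731 and 7873 normalized counts, the VEGF receptor Flt1 with 25879 and 16444, and the adherens junction cadherin Cdh5 with 8703 and 5599. The transcription factors Sox17 and Sox18 were the exceptions, with log2 ratios of 0.09 and 0.03. In bulk RNA, fewer cells of a type and less RNA per cell cannot be told apart.

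Pericyte genes were lower to a like extent, and smooth muscle genes were higher. Of 17 pericyte markers compared, 16 were below 0 and the median log2 ratio was -0.68. Foxs1, a forkhead transcription factor gene, was 2.26-fold lower, Cox4i2, encoding an isoform of a respiratory chain subunit, 2.22-fold and the gamma-glutamyltransferase gene Ggt1 2.15-fold. The receptor Pdgfrb, through which endothelial cells recruit pericytes, had 7063 normalized counts in C57BL6 vessels and 4353 in C57BL6-BALB/c vessels. The mural genes Notch3 and Cspg4, also on the pericyte list, had log2 ratios of -0.23 and 0.17. By contrast, 22 of the 25 smooth muscle markers were above 0, with a median of 0.41, and none reached 2-fold in either direction. Acta2, encoding smooth muscle actin, had 12709 and 18730 normalized counts, the smooth muscle myosin gene Myh11 10367 and 17348, and the calponin gene Cnn1 624 and 1155. The 3 smooth muscle markers below 0 were Casq2, Olfr558 and Crip1, at -0.88, -0.32 and -0.15. Most members of each list thus lay on 1 side of 0 while few reached 2-fold.

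**Figure D2:**
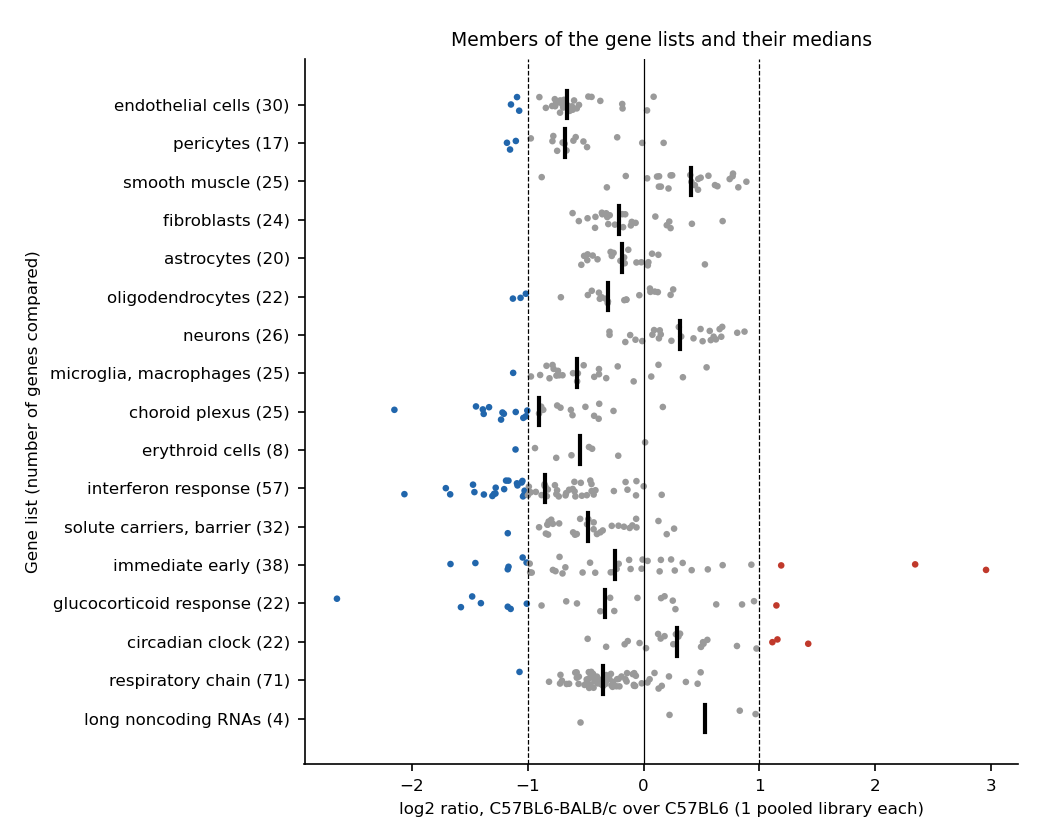
The log2 ratio of C57BL6-BALB/c over C57BL6 WT vessels (x axis) for the members of 17 gene lists (y axis, with the number of genes compared), 1 point for each gene and a black bar at the median of each list. Red and blue points are at least 2-fold higher or lower, and the bars of the endothelial, pericyte, choroid plexus and interferon lists lie between -0.66 and -0.90 while that of the smooth muscle list lies at 0.41.

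Transporters of the barrier were lower with the endothelial markers. Of 32 solute carriers of the barrier, 29 were below 0 with a median of -0.48, and 1, the iron exporter gene Slc40a1, was 2.25-fold lower. The organic anion transporter gene Slco1a4 had 17533 normalized counts in C57BL6 vessels and 9777 in C57BL6-BALB/c vessels, and Slco1c1, which carries thyroid hormone, 12468 and 7070. The glucose transporter gene Slc2a1 differed less, with 37284 and 28794 normalized counts. The ABC transporters had a median of 0.03, with 23 of 37 above 0 and none past 2-fold. Abcb1a, the efflux pump P-glycoprotein, was at -0.76. Abcb1a, Slco1a4 and Slc2a1 are also on the endothelial list. Without genes that another cell list also holds, the median of the solute carriers was -0.49.

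Among junction genes the 2 directions met. Of 25 tight junction genes compared, Cldn5, Cldn1 and Igsf5 were at least 2-fold lower and Marveld2 and Magi1 at least 2-fold higher, with a list median of -0.22. Together they were 20% of the genes compared on the list, against 3.43% of all genes. Marveld2, encoding tricellulin, which seals the points where 3 cells meet, had 233 normalized counts in C57BL6 vessels and 686 in C57BL6-BALB/c vessels, a log2 ratio of 1.56. Magi1, a junctional scaffold, had 1312 and 3785 normalized counts, and all 3 of its transcripts past the minimum were between 1.53 and 1.61 higher on the log2 scale. Raw counts of Marveld2 were 267, 635 and 681 in the C57BL6, C57BL6-BALB/c and Cx30-/- libraries, so that the 2 WT libraries lay on either side of a more than 2-fold gap. For Magi1 they were 1503, 3504 and 1228. None of the 20 adherens junction genes reached 2-fold.

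Signalling genes of the endothelium held some of the clearest single differences. In the list of Notch and arteriovenous genes 4 of 32 (12.5%) were at least 2-fold lower, against 2.02% of all genes, and none was higher. The share was near the 10% of the endothelial list, and the median was -0.30, with 22 genes below 0 and 10 above. Dll4, the arterial Notch ligand, had 2151 normalized counts in C57BL6 vessels and 851 in C57BL6-BALB/c vessels (log2 ratio -1.34, interval -1.45 to -1.22). Its target gene Nrarp, a feedback inhibitor of Notch signalling, was 2.29-fold lower, the lymphangiogenic growth factor gene Vegfc 2.35-fold and the alkaline phosphatase gene Alpl 2.23-fold. Among genes of vascular tone, the vasoconstrictor endothelin gene Edn1 was lower (2435 and 906 normalized counts), as was the inducible nitric oxide synthase gene Nos2 (243 and 103), and the inducible prostaglandin synthase gene Ptgs2 was higher (1179 and 3093). Endothelial nitric oxide synthase, Nos3, had 6101 and 5382. Klf2, a transcription factor of the endothelium that responds to blood flow, was lower at 7180 and 2264 normalized counts, with a log2 ratio of -1.67. In the Cx30-/- library the raw counts of Klf2, Dll4 and Edn1 were 7908, 2786 and 2559, each closer to those of the C57BL6 library (8222, 2463 and 2788) than to those of the C57BL6-BALB/c library (2096, 788 and 839).

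Transcripts of the choroid plexus, the epithelium that secretes cerebrospinal fluid in the ventricles, were present in both preparations and lower in the C57BL6-BALB/c one. Of 25 markers 24 were below 0, the median log2 ratio was -0.90, and 12 (48%) were at least 2-fold lower against 2.02% of all genes. Ttr, the transthyretin carrier of thyroid hormone, had 137638 normalized counts in C57BL6 vessels and 52930 in C57BL6-BALB/c vessels. The water channel gene Aqp1 was 2.72-fold lower, the folate receptor gene Folr1 2.61-fold, the bicarbonate transporter gene Slc4a5 2.52-fold and the anti-ageing hormone gene Kl 2.34-fold. Steap1, a metalloreductase gene, showed the largest difference of the list with 384 raw counts against 70. Summed over the list, the normalized counts were 213403 in C57BL6, 96528 in C57BL6-BALB/c and 127618 in Cx30-/- vessels. Motile cilia genes, which mark the neighbouring ependyma, had a median of -0.18, and none of 24 reached 2-fold.

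Markers of other cells that adhere to vessels had medians on both sides of 0. Neuronal markers had a median of 0.31, with 20 of 26 above 0 and none past 2-fold, and their summed normalized counts were 120682 in C57BL6 and 157153 in C57BL6-BALB/c vessels. Astrocyte markers had a median of -0.18, with 15 of 20 below 0 and none past 2-fold. The folate enzyme gene Aldh1l1 had 732 and 504 normalized counts, Gfap 5401 and 5331, and the water channel gene of the endfeet, Aqp4, 314 and 454. Microglia and macrophage markers had a median of -0.57, with 21 of 25 below 0 and 1, Ms4a7, at least 2-fold lower. Of the oligodendrocyte markers 3 of 22 (13.6%, against 2.02% of all genes) were at least 2-fold lower. These included Enpp2, which the choroid plexus list also holds, and the transferrin gene Trf, whose 4 transcripts ran from -1.16 to 0.41. The part of these other cells in the differences of the vascular genes was not tested.

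Interferon response genes were lower as a group in C57BL6-BALB/c vessels. Interferons are cytokines of antiviral defence, and cells that receive them activate transcription factors, STAT2 and IRF9 among them, which bind a short element in the promoters of the response genes. Of 57 interferon response genes compared, 55 were below 0 with a median of -0.85, 20 (35.1%, against 2.02% of all genes) were at least 2-fold lower and none was higher. Irf7, an amplifier of the response, had 1264 normalized counts in C57BL6 vessels and 564 in C57BL6-BALB/c vessels. The nucleic acid sensor gene Zbp1 was 3.18-fold lower and the GTPase gene Ifi47 2.6-fold. Igtp and Irgm2, which encode 2 further GTPases and overlap on chromosome 11, so that their counts cannot be separated, were both 2.42-fold lower. Stat2 had 3080 and 2766 normalized counts, and Irf9 2060 and 1725. In the Trim cluster on chromosome 7 of GRCm38 (104244457 to 104535361), 4 of 7 genes compared (57.1%) were at least 2-fold lower, against 2.02% of all genes. Trim12a had 248 and 48 raw counts and Trim34a 238 and 59. The genes of this cluster are near copies of each other, and reads matching more than once had been removed, so the values of single members are uncertain.

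To show the element shared by these genes, the promoters in the RefSeq table for GRCm38.p6 were searched on both strands for the interferon-stimulated response element, spelled GAAANNGAAA. It occurred in 29 of the 43 interferon response genes that had a promoter in the table (67.4%), in 401 of 10998 genes compared (3.65%) and in 3.99% of all promoters in the table. Among the genes at least 2-fold lower it occurred in 28 of 227 (12.3%), 10 of them on the interferon list, and among those at least 2-fold higher in 1 of 133 (0.752%). A match is a description of these letters and does not show binding. The 250 bases before the start are printed for the ubiquitin-like modifier gene Isg15 (chr4:156200819-156201068), the tetherin gene Bst2 (chr8:71537473-71537722) and the antiviral enzyme gene Rsad2 (chr12:26456453-26456702), all on the minus strand, with matches in capitals and overlapping matches merged.
Isg15: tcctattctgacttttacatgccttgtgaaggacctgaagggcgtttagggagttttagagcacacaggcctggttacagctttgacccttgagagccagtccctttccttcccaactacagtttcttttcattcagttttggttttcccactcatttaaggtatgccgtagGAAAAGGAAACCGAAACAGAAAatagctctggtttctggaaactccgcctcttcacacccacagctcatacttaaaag
Bst2: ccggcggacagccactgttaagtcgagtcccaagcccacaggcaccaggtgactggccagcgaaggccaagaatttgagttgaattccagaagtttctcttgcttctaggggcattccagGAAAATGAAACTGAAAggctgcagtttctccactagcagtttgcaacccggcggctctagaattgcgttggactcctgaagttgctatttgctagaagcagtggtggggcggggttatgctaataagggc
Rsad2: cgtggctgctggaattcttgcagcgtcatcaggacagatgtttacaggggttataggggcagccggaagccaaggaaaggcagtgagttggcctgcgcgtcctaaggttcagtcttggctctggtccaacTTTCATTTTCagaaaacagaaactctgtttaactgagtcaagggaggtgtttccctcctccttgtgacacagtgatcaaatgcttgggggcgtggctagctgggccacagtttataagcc
The run in the Isg15 promoter holds 3 overlapping matches, between 78 and 57 bases before the start, that of Bst2 holds 2, and that of Rsad2 holds 1 on the opposite strand. Isg15 had 449.7 normalized counts in C57BL6 vessels and 198 in C57BL6-BALB/c vessels, a log2 ratio of -1.19. Bst2 had 1133 and 551, at -1.04, and Rsad2 843 and 341, at -1.30. All 3 are among the 10 genes of the list that hold the element and were at least 2-fold lower, so their direction is no further result. Of the 16 list genes at least 2-fold lower that had a promoter in the table, 10 (62.5%) held the element, against 67.4% of the list.

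**Figure D3:**
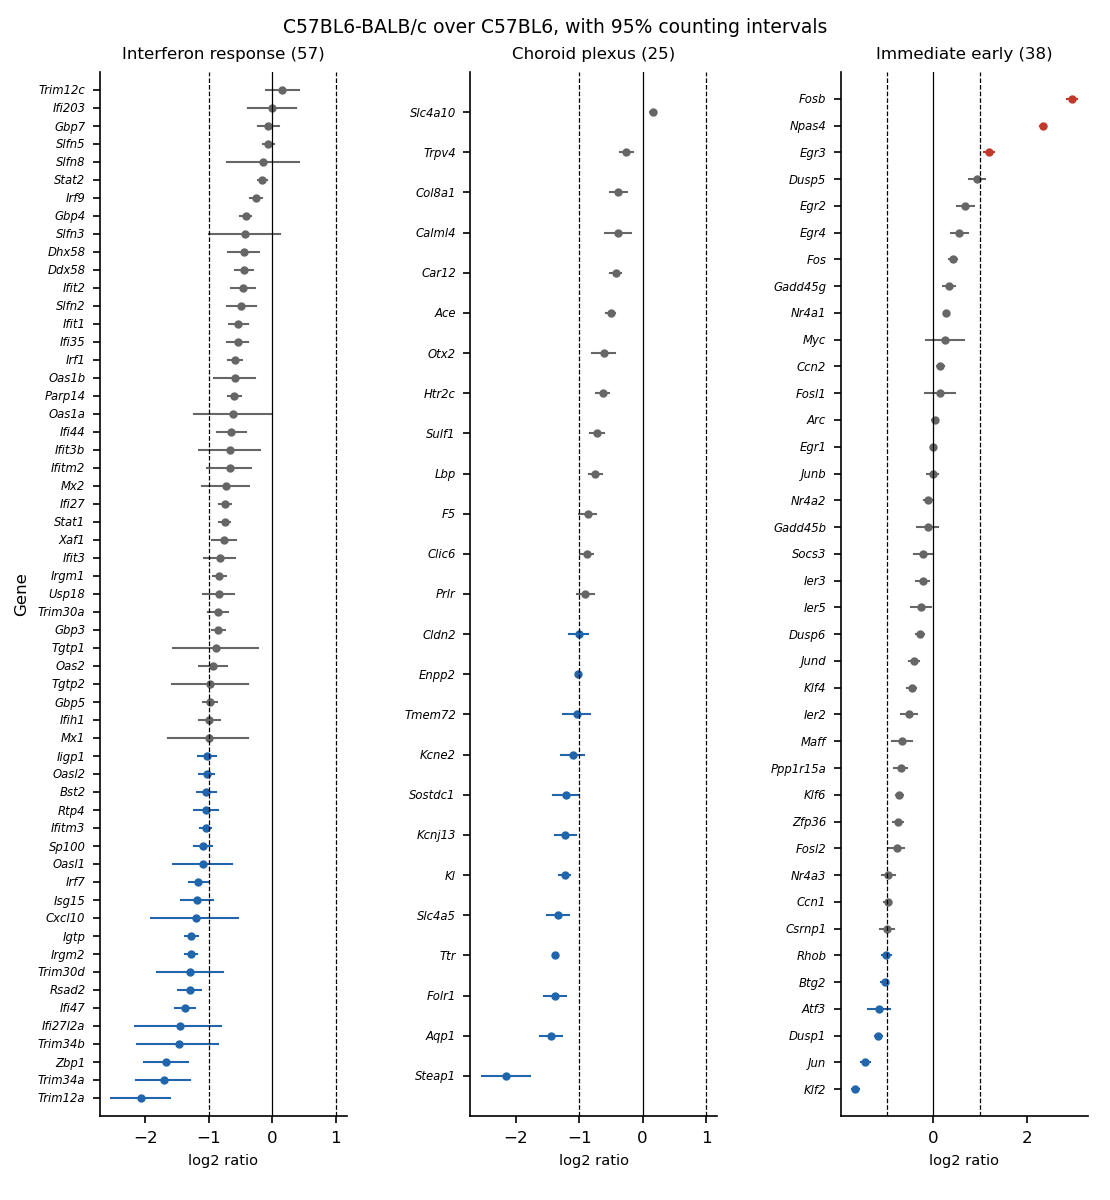
The log2 ratio of C57BL6-BALB/c over C57BL6 WT vessels (x axes) with its 95% counting interval for each gene (y axes) of the interferon response, choroid plexus and immediate early lists. Red and blue mark ratios of at least 2-fold, and blue genes number 20 of 57, 12 of 25 and 6 of 38 while red genes appear in the immediate early list alone, where there are 3.

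Antigen presentation genes went both ways. Of 28 compared, 20 were below 0 and 8 above, with a median of -0.38. At least 2-fold, 3 were higher and 1 lower, 14.3% in all against 3.43% of all genes. The H2 complex (chromosome 17 of GRCm38, 33996017 to 37483552) encodes the molecules that present peptides to T cells. The transplantation antigen gene H2-K1 had 9343 normalized counts in C57BL6 vessels and 5207 in C57BL6-BALB/c vessels, its partner B2m 17679 and 10433, the peptide transporter gene Tap1 1548 and 859, and the immunoproteasome gene Psmb9 444 and 218. The class II genes H2-Aa, H2-Ab1 and H2-Eb1 were at -0.69, -0.73 and -0.67, and Ciita, the activator of class II transcription, at 0.51. The class I gene H2-M5 was at 0.85 and the class II accessory gene H2-DMa at 0.19. Of 107 genes compared within these borders, 6 were at least 2-fold higher and 1, Psmb9, lower, 6.54% against 3.43% of all genes, and the median was -0.02. Among the higher ones, H2-Ea-ps, H2-Q10, H2-Q2, Gm8909 and 2410017I17Rik passed the count minimum only through the C57BL6-BALB/c library. The share rests largely on them and does not describe the complex as a whole. H2-Ea-ps, annotated as a polymorphic pseudogene, which encodes the class II alpha chain that C57BL6 mice are known to lack and BALB/c mice to have, had 0 raw counts in C57BL6, 115 in C57BL6-BALB/c and 145 in Cx30-/- vessels. Against a floor of 3 counts it was 47.4-fold higher in C57BL6-BALB/c, where the reads covered 681 of the 686 bases of its transcript.

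The class I genes of the Q region, which resemble each other closely, gave the other large values in the complex. H2-Q10 had 6 raw counts in C57BL6, 361 in C57BL6-BALB/c and 271 in Cx30-/- vessels, H2-Q2 had 7, 73 and 54, and the class I-like gene Gm8909 had 0, 111 and 104. The noncoding gene 2410017I17Rik, next to Gm8909, had 2, 361 and 268, but was at 0.30 on the log2 scale by its longest transcript. In each of these genes the C57BL6 library had at most 7 reads and the others at least 54. The reads of H2-Q10 in C57BL6-BALB/c covered 313 of the 1473 bases of its transcript, those of H2-Q2 305 of 1099, those of Gm8909 296 of 1197 and those of 2410017I17Rik 308 of 1065, so none of these counts stands for the whole gene. H2-Q4, H2-Q6 and H2-Q7 were at -0.10, -0.37 and 0.15, and H2-Q7 changed sign with the transcript used. The Ly6 genes, another polymorphic family, held no member past 2-fold among 8 compared, with 4 below 0, among them Ly6a at -0.79, Ly6c1 at -0.72 and Ly6e at -0.96 (-1.02 with total counts), and 4 above 0, among them Ly6h at 0.12 and Lypd6 at 0.34.

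Some genes outside the H2 complex, Nlrp1a among them, were nearly absent from 1 WT library. Others, such as Sfi1, differed but were well read in both. Cwc22, a splicing factor gene (chromosome 2 of GRCm38, 77881159 to 77946375), had 43 raw counts in C57BL6, 1395 in C57BL6-BALB/c and 391 in Cx30-/- vessels, and all 12 of its transcripts past the minimum were at least 2-fold higher in C57BL6-BALB/c. The noncoding transcript Gm13727, whose annotation overlaps the end of Cwc22 on the same strand, had 1, 85 and 23. Sfi1, a gene of the centrosome (chromosome 11, 3131850 to 3193463), had 2242, 11000 and 4451 raw counts, 6.07-fold higher in C57BL6-BALB/c than in C57BL6 once normalized, with all 20 transcripts past the minimum at least 2-fold higher. The neighbouring pseudogene Pisd-ps1 was 2.1-fold higher. The inflammasome sensor genes Nlrp1a and Nlrp1b, neighbours on chromosome 11, went in opposite directions, Nlrp1a with 2, 57 and 95 raw counts and Nlrp1b, below the count minimum, with 45, 4 and 8. The interferon-inducible genes Ifi202b and Ifi213, both below the minimum, had 0, 40 and 56 and 18, 0 and 2, and Ifi213 was at -0.70 by its longest transcript. Naip5, an inflammasome gene with near copies, was 3.09-fold lower, whereas Nnt, Glo1 and Alad, on the same list of genes that vary between inbred strains, were at 0.24, 0.40 and 0.58. On that list 2 of 20 genes compared were at least 2-fold higher and 6 lower, 40% in all against 3.43% of all genes. Its members were chosen as known to vary and with earlier results of these data known, so this share is no independent support. Of those past 2-fold, H2-Ea-ps, Ccl6, Ccl9 and Naip5 passed the count minimum only through the library where they were higher.

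**Figure D4:**
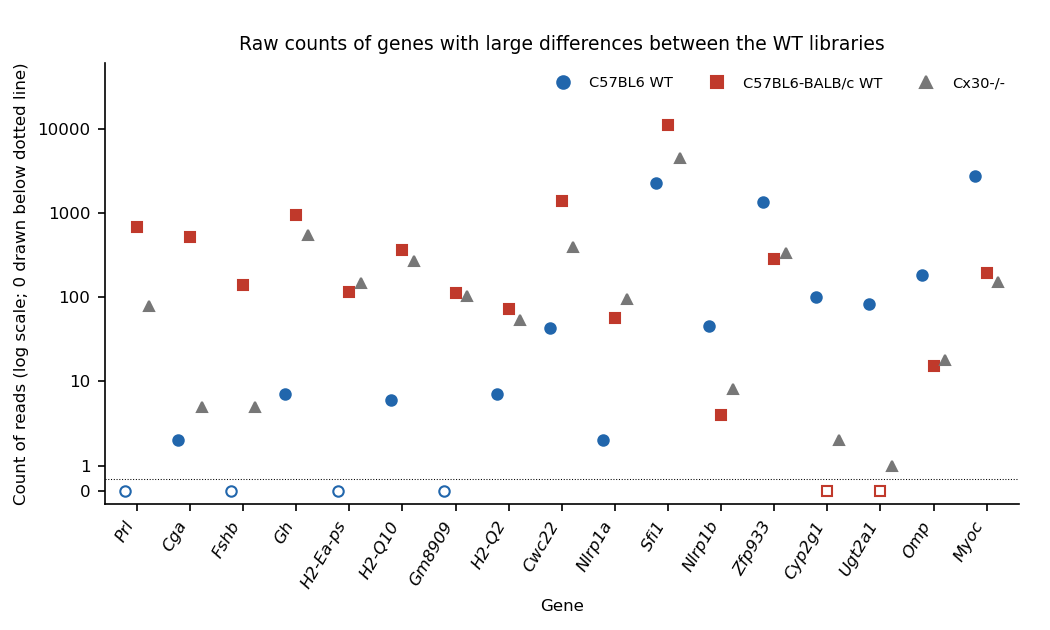
Raw read counts (y axis, log scale, with 0 drawn below a dotted line) of 17 genes (x axis) in the C57BL6 WT, C57BL6-BALB/c WT and Cx30-/- libraries, 1 point for each library. Of the H2 genes, the C57BL6 library has at most 7 reads and the other libraries at least 54, whereas Prl, Cga and Fshb are high in the C57BL6-BALB/c library and Cyp2g1 and Ugt2a1 are read almost only in the C57BL6 library.

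The 2 largest ratios, with a floor of 3 counts for a library at 0, belonged to hormone genes of the anterior pituitary, the gland below the brain. Prl, encoding prolactin, had 0 raw counts in C57BL6, 684 in C57BL6-BALB/c and 78 in Cx30-/- vessels. Against a floor of 3 counts it was 282-fold higher between the WT libraries, with an interval from 7.84 upward on the log2 scale. Cga, the alpha subunit shared by the glycoprotein hormones, had 2, 518 and 5 raw counts, with a log2 ratio of 8.32 and an interval from 6.46 to 11.37. The growth hormone gene Gh had 7, 933 and 542, and the follicle-stimulating hormone subunit gene Fshb 0, 140 and 5. Only the C57BL6-BALB/c library held all 4 at more than 100 reads. The other 2 genes compared were above 0 but within 2-fold, Pomc at 0.90 with 131, 197 and 176 raw counts and Lhb at 0.70 with 138, 181 and 200. The pituitary transcription factor gene Pou1f1 had at most 11 counts in any library, and the receptor gene Gnrhr had 0, 12 and 0. The list of 15 pituitary genes was drawn up after the values were seen, and 6 of them were past the minimum. Their summed normalized counts were 243 in C57BL6, 2866 in C57BL6-BALB/c and 1055 in Cx30-/- vessels. Prl, Cga, Gh and Fshb passed the minimum only through the C57BL6-BALB/c library, where they were higher. The difference of the sums thus follows largely from this choice and is no further result. The part of pituitary tissue carried along in a preparation was not tested. Platr9, a noncoding gene on the opposite strand that overlaps the end of Cga, had 3, 246 and 4 counts, which cannot be told apart from Cga reads in libraries that do not keep the strand.

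Genes of the olfactory mucosa showed the opposite picture. The cytochrome P450 gene Cyp2g1 had 101 raw counts in C57BL6, 0 in C57BL6-BALB/c and 2 in Cx30-/- vessels. Against a floor of 3 counts it was 27.2-fold lower in C57BL6-BALB/c. Ugt2a1, a glucuronosyltransferase gene, had 83, 0 and 1, and Ugt2a2, which shares exons with it, 64, 0 and 0. Omp, the olfactory marker protein of mature olfactory neurons, had 182, 15 and 18. These genes were read mainly in the C57BL6 library. Adcy3 and Gnal, signalling genes of olfactory neurons that other brain neurons also use, were at 0.29 and 0.60. Of 20 olfactory genes listed after the values were seen, 11 were past the minimum. Of these 11, 4 (36.4%) were at least 2-fold lower, against 2.02% of all genes. The 4 are Cyp2g1, Ugt2a1, Ugt2a2 and Omp, which passed the count minimum only through the C57BL6 library, where they were higher. This share is thus no independent support. The summed normalized counts of those past the minimum, to which Adcy3, Gnal and Stoml3 gave the most in both WT libraries, were 3197 in C57BL6, 3389 in C57BL6-BALB/c and 2382 in Cx30-/- vessels, and the part of olfactory tissue carried along was not tested.

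Other genes also lay at the lower end, and whether they share a tissue was not tested. Myoc, encoding the secreted glycoprotein myocilin, had 2381 normalized counts in C57BL6 vessels and 206 in C57BL6-BALB/c vessels, 11.5-fold lower, and 153 raw counts in Cx30-/- vessels against 2727 and 191. The mitotic checkpoint kinase gene Bub1b had 315, 18 and 53 raw counts, and Tnni1, the slow muscle troponin I, 70, 3 and 15. Cyp2e1, encoding an ethanol-metabolising enzyme, had 121, 3 and 38. Ang, encoding the ribonuclease angiogenin, had 242, 17 and 117, but shares its first exons with a neighbouring ribonuclease gene. For these 5 genes the C57BL6 library was the highest of the 3. A further set, by contrast, was low in the C57BL6-BALB/c library alone. Lcn2, an acute-phase lipocalin, had 4880, 631 and 5054 raw counts, a log2 ratio of -2.64 between the WT libraries, Ch25h, which makes an antiviral oxysterol, 855, 155 and 879, and Tmem252 2898, 549 and 2607. In the same way the ferroxidase gene Cp was 2.73-fold lower and the plasma glycoprotein gene Lrg1 2.34-fold. Outside this set, the serpin gene Serpina3g, which has near copies, was 4.45-fold lower, with 396, 72 and 156 raw counts. Its level in the Cx30-/- library thus lay between those of the WT libraries.

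Zinc finger genes, a large and variable family of transcriptional repressors, appeared at both ends. Of 312 genes with a Zfp symbol compared, 8 were at least 2-fold higher and 4 lower, 3.85% against 3.43% of all genes, so the family as a whole did not stand out. Zfp868 had 368 normalized counts in C57BL6 vessels and 1184 in C57BL6-BALB/c vessels, Zfp983 279 and 832, and Zfp459 75 and 207. In the other direction Zfp933 had 1182 and 302, and Zfp874a 358 and 112. Raw counts of Zfp933 were 1354, 280 and 330 in the C57BL6, C57BL6-BALB/c and Cx30-/- libraries. Of the 3 immunoglobulin constant genes compared, a group looked at after the values were seen, Ighg2c had 20, 139 and 27 raw counts and Igkc 46, 150 and 100, both past 2-fold, while Ighm had 554, 598 and 578, at 0.42. Ighg2c and Igkc passed the count minimum only through the C57BL6-BALB/c library, where they were higher. Their share of the group, 66.7% against 3.43% of all genes, is thus no independent support. Of 4 lymphocyte markers compared, 2 were above and 2 below 0. The share of genes at least 2-fold apart was 5.01% on chromosome 17 and 5.44% on chromosome 1, and went down to 1.28% on the autosome with the lowest share.

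Genes that respond to activity went both ways. Immediate early genes are switched on within minutes of a stimulus, without new protein synthesis. Of 38 compared, 25 were below 0 and 13 above, with a median of -0.25, and 3 were at least 2-fold higher and 6 lower. In all 23.7% were past 2-fold, against 3.43% of all genes. Of 32 genes of the heat shock and unfolded protein response, 22 were below 0, with a median of -0.18, and 1, the small heat shock protein gene Hspb7, was past 2-fold, at 1.49. Fosb, a partner of Jun in the AP-1 transcription factor, had 840 normalized counts in C57BL6 vessels and 6510 in C57BL6-BALB/c vessels, 7.75-fold higher, and Npas4, which neurons express on calcium entry, had 2295 and 11641. Egr3 was 2.28-fold higher. In contrast Jun had 3693 and 1351, the phosphatase gene Dusp1 6232 and 2767, and Klf2 has been given above. Fos, Egr1 and Arc, often used as readouts of neuronal activity, were at 0.42, -0.01 and 0.03. Raw counts of Fosb and Npas4 in the Cx30-/- library were 491 and 1631, below both WT libraries (962 and 6027 for Fosb, 2628 and 10778 for Npas4). Tbr1, a transcription factor gene of cortical neurons, was 2.28-fold higher and the signalling regulator gene Rgs2 2.31-fold higher.

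Circadian clock genes leaned higher. The clock is a feedback loop in which the PER and CRY proteins repress their own activators, and its output genes peak at fixed hours of the day. Of 22 genes 17 were above 0 with a median of 0.29, and 3 (13.6%) were at least 2-fold higher, against 1.41% of all genes. The output gene Dbp had 1125 normalized counts in C57BL6 vessels and 3010 in C57BL6-BALB/c vessels, Per2 had 1822 and 3935, and Ciart, a repressor of the loop, 153 and 340. Per3 was just under 2-fold at 0.97, Nr1d1 was at 0.81, Cry1 at -0.03 and the activator gene Arntl at -0.32. The hour at which the mice were killed is not given in the sources used here. Genes that respond to glucocorticoids went both ways, with 14 of 22 below 0, 8 above and a median of -0.33. Of the 22, 7 were at least 2-fold lower and 1, Zbtb16, higher, 36.4% in all against 3.43% of all genes. Cdkn1a, the cell cycle inhibitor p21, was 2.79-fold lower, Cebpd 2.98-fold and Angptl4, an inhibitor of lipoprotein lipase, 2.64-fold, while Fkbp5, a cochaperone of the glucocorticoid receptor, had 520 and 1006 normalized counts.

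Genes of energy metabolism were lower by small amounts. Of 71 nuclear genes of the respiratory chain 62 were below 0, with a median of -0.35, and the 7 genes encoded by mitochondrial DNA that were compared were all below 0, with a median of -0.42. Of 52 ribosomal protein genes 37 were below 0, with a median of -0.20. Most of these transcripts are short, and after subtraction of the median of genes of like length the medians were -0.22 for the respiratory chain and -0.06 for the ribosomal proteins. Of 4 long noncoding RNAs compared, 3 were above 0, with a median of 0.53. The maternally expressed Meg3 had 233077 normalized counts in C57BL6 vessels and 455329 in C57BL6-BALB/c vessels, 1.95-fold higher. Snhg11, a host gene of small nucleolar RNAs, had 166645 and 296243, 1.78-fold higher. By single transcripts past the minimum, 3 of 10 of Meg3 and 4 of 5 of Snhg11 were at least 2-fold higher.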

How the data were processed

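Polyadenylated RNA of pooled brain vessels was sequenced as 50-base single reads in 1 library for each group, without strand, all on 1 lane. The authors trimmed and filtered the reads with Eoulsan, aligned them to the mm10 mouse assembly, which derives from C57BL6, with Bowtie, and removed reads matching more than once. Genes with near copies, or with a BALB/c sequence unlike the reference, may thus be miscounted, which was not tested. The authors deposited 82813 Ensembl transcripts per library, each with its count (reads on its exons, not normalized), that count over a library-wide total as a fraction (the total was 24830975 for C57BL6, 21170766 for C57BL6-BALB/c and 20654144 for Cx30-/-), its length and its uncovered bases. The fraction was used only to recover that total, and what the total counts is not given in the sources used here. Positions in the files run past the end of chromosome 1 in GENCODE M21, so coordinates were taken from GENCODE M21 (GRCm38) by transcript identifier, which named 83.77% of transcripts, holding 84.05% and 83.44% of the WT counts.

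Samples were grouped by genotype and background in the labels. Each gene took its transcript with the largest total count over the 3 libraries. Normalized counts are counts over size factors (median of ratios, all libraries), and genes with at least 50 normalized counts in 1 of the 2 WT libraries were compared without a pseudocount. With 1 library per group no test was run, and "2-fold" is a threshold of size. Intervals are exact conditional binomial (Clopper-Pearson) 95% intervals of the 2 raw counts (scipy 1.17.1) and cover counting error only. A library at 0 was set to a floor of 3 counts to give a ratio. The ratio step was checked on simulated counts. Genes named are the 15 protein-coding genes highest and lowest by the interval bound nearest 0, the members past 2-fold (at most 6) and the most-read member of each list, and the compared genes of 3 lists of immune and strain-variable genes. Others were added after their values were seen. The members and lists were chosen with earlier results of these data known. Alternatives were other size factors (TMM from edgeR 4.0.16), transcripts, minimums, thresholds and a pseudocount of 1. Promoters are from RefSeq. Values of some list members are not reported here.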

Additional observations from a re-analysis of the deposited data

Results flagged for a closer look

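In 4 genes a WT library without a single read stood beside a signal in the Cx30-/- library, which the comparison of the WT libraries did not use. Each was at 0 in the C57BL6 library and past the count minimum in the C57BL6-BALB/c library. The Cx30-/- library held 145 raw counts of H2-Ea-ps and 104 of Gm8909, near the 115 and 111 of the C57BL6-BALB/c library. Of the pituitary genes it held 78 counts of Prl and 5 of Fshb, against 684 and 140 in the C57BL6-BALB/c library. A count of 0 in the C57BL6 library allows up to 3 counts.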

How the results depend on the processing

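Other size factors, other transcripts, a pseudocount, protein-coding genes alone and the length correction kept all 3 counts of genes within 1.5 times of 508, 209 higher and 299 lower. Minimums and thresholds moved them. At least 50 counts in both libraries left 331, 119 of them higher, at least 200 in 1 library left 272 (99 higher, 173 lower), at least 10 gave 1069 (501 and 568), and no minimum gave 3983 (1970 and 2013). A 1.5-fold threshold gave 2274 (1085 and 1189), a 4-fold one 56 (29 and 27), and intervals wholly past 2-fold, chosen after seeing the data, 217 (87 and 130). The median of the endothelial list was -0.72 with total counts, and those of the pericyte, smooth muscle, interferon and choroid plexus lists kept their sign under every alternative run. The Ly6 median went from -0.16 to 0.017 without a minimum and to 0.086 without genes on another cell list, and the olfactory median from -0.56 to 0.44 with a minimum of 200. Trf was at 0.41 by its longest transcript, H2-Q7 at -0.034 by the sum and -0.40 by the longest of its transcripts, and after the length correction Nrgn was at 0.053 and Agrn at -0.057. Of 213 named genes the length correction moved 62 and total counts 37 beyond their counting intervals. Of the 124 past 2-fold, 15 lay within it after the length correction, Col11a1 at 0.82 and S100a8 at -0.84 among them, 5 with the longest transcript, and at most 4 under any other alternative run. The causes were not tested.

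No paired analysis was possible because each group is 1 library, and for the same reason leaving out a replicate was not run. The intervals cover reads and not mice. Genes with few reads had wide intervals, and 124 of the 508 had under 100 normalized counts in the higher library.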

Other observations

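Matrix and growth factor genes differed little as groups. Of 34 collagen genes 1, the fibrillar Col11a1, was at least 2-fold higher, at 1024 normalized counts in C57BL6 vessels and 2099 in C57BL6-BALB/c vessels, and the median log2 ratio was -0.12. The basement membrane gene Col4a2 had 10675 and 12574. Among genes of TGF-beta and BMP signalling, the ligand gene Tgfb3 was 2.1-fold higher. The dystrophin-associated protein complex, which links the cytoskeleton to laminin, had a median of 0.10, with none of 20 genes past 2-fold. Gja1, the astrocytic connexin 43, had 4487 and 4619 normalized counts.

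Blood cell transcripts did not move as 1 block. The adult globin gene Hbb-bs had 5652 normalized counts in C57BL6 vessels and 3354 in C57BL6-BALB/c vessels. Of 8 neutrophil genes compared, Lcn2, which other cells also express, and S100a8 were at least 2-fold lower, and the lactoferrin gene Ltf (83 and 203 raw counts) and the formyl peptide receptor gene Fpr1 (56 and 134) at least 2-fold higher. Together they were 50% of these 8 genes, against 3.43% of all genes. Fpr1 passed the count minimum only through the C57BL6-BALB/c library. The platelet chemokine gene Ppbp had 163 and 41 raw counts. Of 19 leukocyte adhesion and chemokine genes compared, 18 were below 0, with a median of -0.50, 5 were at least 2-fold lower and 1, Ccl24, 2.15-fold higher, 31.6% in all against 3.43% of all genes. Of those past 2-fold, Ccl24, Ccl6, Ccl9 and Cxcl10 had at most 74 raw counts in either WT library. They passed the count minimum only through the library where they were higher, so the share rests largely on genes with few reads.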
